A study of Mus musculus with 6 samples.

Results

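Immediate early stress genes are described here across 6 single-cell libraries of mouse leukaemic bone marrow. The members are a fixed list of 10 genes: Fos, Fosb, Jun, Junb, Jund, Egr1, Atf3, Ier2, Zfp36 and Dusp1. They were found by symbol, and all 10 were present among the 30406 genes that the 6 count matrices share. No measured value entered the choice of a member, although the list was proposed with earlier results of these data known.

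Immediate early genes are switched on within minutes of a stimulus by transcription factors that already sit in the cell, without new protein being made. Fos and Jun proteins pair through leucine zippers to form AP-1, a DNA-binding dimer, while Zfp36 and Dusp1 shut the response down by destroying messages and by removing phosphate from MAP kinases. In blood and marrow the same genes also respond to tissue dissociation, cold and the time a cell spends in suspension, so their levels can carry the history of the sample as well as that of the cell.

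The study compared acute myeloid leukaemias driven by MLL-AF9 (MA9) or by Hoxa9 with Meis1 (HM), with droplet 3′ libraries of flushed bone marrow after lysis of red cells. In MA9, Shp-1 f/f (floxed) and Shp-1 Δ/Δ (deleted) leukaemias were each given PBS or AraC + Dox, and 2 further libraries came from HM leukaemia given PBS or AraC + Dox, with Shp-1 f/f in their titles only. Per the labels the leukaemias arose by transfecting the oncogenes into mouse embryonic stem cells, and neither the driver of the Shp-1 deletion nor doses, times, ages or pooling of animals are stated there. With 1 library in each group, a difference between groups cannot be set against replicate spread and carries no p-value.

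The label of the deletion was checked first. Ptpn6, which encodes Shp-1 (ENSMUSG00000004266, GRCm38 chromosome 6, 124720707 to 124738714, minus strand), was measured in CPM, counts per 1000000 unique molecular identifiers (UMIs) of the kept cells. It stood at 186 CPM in the MA9 f/f-labelled PBS library, 172 in the Δ/Δ-labelled PBS library, 57.7 in f/f AraC + Dox and 43.5 in Δ/Δ AraC + Dox. It was 135 CPM in HM PBS and 113 in HM AraC + Dox. Ptpn6 therefore went against 2 MA9 labels, the one called Δ/Δ PBS and the one called f/f AraC + Dox. The labels do not name the deleted exons, and a 3′ tag that lies outside them checks nothing. Every direction drawn below between MA9 libraries rests on labels of which 2 are in doubt. Were these 2 labels exchanged, the 4 comparisons among MA9 libraries would trade places: the values below for Δ/Δ against f/f with PBS would be those of AraC + Dox against PBS in f/f, and the values for Δ/Δ against f/f with AraC + Dox those of AraC + Dox against PBS in Δ/Δ.

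Kept cells numbered 2726 in HM PBS and 4598 to 9204 in the other libraries, with a median of 3991.5 UMIs per cell in HM PBS and 6563.5 to 9876 elsewhere. In HM PBS 74.7% of barcodes exceeded 10% mitochondrial UMIs and 22.1% passed all filters, against 1.83% to 8.33% over the limit in the other libraries. HM PBS therefore stood apart, and the main values over whole HM libraries are also given with all barcodes; the classes were gated among kept cells, so values within HM classes have no such counterpart. Pairs of MA9 libraries shared 17 to 25 barcodes, the HM pair shared 6, and MA9 shared 0 with HM. Cells were gated into "-like" classes from fixed marker genes, none of which is a member. Immature neutrophil-like cells, led by Ltf, Ngp and Camp, made up 35.1% (PBS) and 25.4% (AraC + Dox) of the libraries labelled f/f, 2.85% and 2.21% of those labelled Δ/Δ, and 31.4% and 16.8% of HM PBS and HM AraC + Dox. Mature neutrophil-like cells, led by Il1b and Acod1 together with the interferon-induced genes Ifit3, Ifit3b and Rsad2, were 42.6% of HM PBS and 31.2% of HM AraC + Dox, against 1.04% to 4.75% of the MA9 libraries. Neutrophil, monocyte and lymphocyte markers of the labelled marrow were thus present in all 6 libraries.

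The members are compact genes. In GENCODE vM21 (GRCm38), Jun, Junb, Jund and Ier2 have a single exon, a structure found in 8.56% of 21585 genes. All 10 members have at most 4 exons, as do 38.6% of genes. The span was below the median of 17441 bp for 8 of 10, the exceptions being Atf3 (47744 bp) and Dusp1 (56539 bp as annotated). Fos lies on chromosome 12 (85473890 to 85477273, plus strand), Jun on chromosome 4 (95049034 to 95052222, minus), Fosb and Zfp36 on chromosome 7 (19302696 to 19310051 and 28376784 to 28380253, both minus). Junb, Ier2 and Jund lie on chromosome 8 (84974484 to 84978718 and 84661331 to 84662852, both minus, and 70698949 to 70700616, plus). Atf3 lies on chromosome 1 (191170296 to 191218039, minus) and Dusp1 on chromosome 17 (26505590 to 26562128, minus).

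The RefSeq promoter table (GRCm38.p6) held 8 of the 10 members, all but Egr1 and Ier2, and the 250 bases before the RefSeq start were searched on both strands. That start can differ from the GENCODE gene start given above. For Dusp1, Zfp36 and Atf3 the bases searched lie inside the GENCODE span, and for Jund they lie apart from it, upstream. The letters searched were the cyclic AMP response element (CRE) TGACGTCA, its shortened form TGACG, which the full CRE also contains, the AP-1 site TGACTCA, the TATA box TATAAA, and the CArG box by name, the element of serum response factor. Dusp1 held the CRE, as 1.55% of 32851 promoters did, and Zfp36 held a CArG box, as 1.47% did. Fos held the TATA box (12.4% of promoters), and TGACG occurred in 5 of 8 members, Atf3, Fosb, Junb, Fos and Dusp1 (17.8% of promoters). The AP-1 site was found in 0 of 8 (4.46% of promoters). A match is a run of letters, not a bound site. The 4 promoters below are shown because together they hold each element that was found, and because Fosb and Dusp1 were among the members that differed most between libraries. They are written 5′ to 3′ on the strand of the gene, with the matched letters in capitals: TGACG and TATAAA in Fos (chr12:85473640-85473889, plus), TGACG in Fosb (chr7:19310046-19310295, minus), the CArG box in Zfp36 (chr7:28379229-28379478, minus), and TGACG and the full CRE in Dusp1 (chr17:26508473-26508722, minus).
Fos: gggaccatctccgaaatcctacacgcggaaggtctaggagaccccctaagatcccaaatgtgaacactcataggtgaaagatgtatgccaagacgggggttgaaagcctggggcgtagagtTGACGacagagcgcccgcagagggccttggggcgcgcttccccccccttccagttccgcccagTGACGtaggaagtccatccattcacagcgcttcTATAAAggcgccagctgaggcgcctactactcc
Fosb: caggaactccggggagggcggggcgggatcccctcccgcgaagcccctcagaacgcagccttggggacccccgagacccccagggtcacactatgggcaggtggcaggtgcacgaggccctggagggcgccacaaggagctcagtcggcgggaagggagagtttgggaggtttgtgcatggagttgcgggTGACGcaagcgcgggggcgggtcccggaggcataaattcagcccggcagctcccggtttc
Zfp36: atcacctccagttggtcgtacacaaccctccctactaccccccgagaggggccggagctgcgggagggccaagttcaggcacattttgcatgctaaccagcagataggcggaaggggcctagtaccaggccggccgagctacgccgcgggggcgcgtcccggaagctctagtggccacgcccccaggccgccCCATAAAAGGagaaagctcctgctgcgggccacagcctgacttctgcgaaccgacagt
Dusp1: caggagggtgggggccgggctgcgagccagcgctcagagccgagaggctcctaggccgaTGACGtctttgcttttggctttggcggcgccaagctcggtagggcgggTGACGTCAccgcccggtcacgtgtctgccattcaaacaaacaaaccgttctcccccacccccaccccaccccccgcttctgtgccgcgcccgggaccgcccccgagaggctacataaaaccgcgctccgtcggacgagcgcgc
Counted from the RefSeq start, the first matched base lay at -129 and -66 for TGACG and at -33 for TATAAA in Fos, at -60 in Fosb, at -58 for the CArG box in Zfp36, and at -143 for the full CRE of Dusp1, with a separate TGACG at -191.

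The levels of both Fos family members were highest in the MA9 f/f-labelled AraC + Dox library, which among the MA9 libraries was highest for 8 of 10 members, as it was for 21.6% of genes. Fos, the inducible partner in AP-1, stood at 471 CPM in the MA9 f/f-labelled PBS library, 335 in Δ/Δ PBS, 661 in f/f AraC + Dox and 471 in Δ/Δ AraC + Dox. HM PBS had 537 CPM of Fos and HM AraC + Dox 409. The order of the 6 levels ran from f/f AraC + Dox through HM PBS to Δ/Δ PBS, a span of 1.98-fold, and the neighbours Δ/Δ AraC + Dox and f/f PBS had overlapping 95% counting intervals. Fosb, a close relative of Fos, varied more, 7.60-fold. It was 240.3, 166, 319 and 262 CPM in the 4 MA9 libraries in the same order, and 132 and 42.0 CPM in HM PBS and HM AraC + Dox. Fosb was lower in both HM libraries than in any MA9 library, a pattern shared by 53.8% of the 6733 genes compared, so it does not single out Fosb. With all barcodes, HM PBS had 251 CPM of Fosb and 0 members had that pattern. Intervals here and below are exact 95% intervals that cover counting error only, and they do not cover differences between animals or preparations.

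The Jun family was not uniform. Jun, the main AP-1 partner of Fos, was 567 CPM in the MA9 f/f-labelled PBS library, 320.0 in Δ/Δ PBS, 699 in f/f AraC + Dox, 697 in Δ/Δ AraC + Dox, 637 in HM PBS and 318 in HM AraC + Dox. Both MA9 libraries given AraC + Dox overlapped within counting error, and so did the lowest pair, Δ/Δ PBS and HM AraC + Dox. Junb, a relative that often restrains Jun, was 136, 147, 176 and 134 CPM in the MA9 libraries in the order above, and 409 and 399.8 CPM in HM PBS and HM AraC + Dox. Junb in both HM libraries lay above all 4 MA9 libraries, beside mature neutrophil-like shares of 31.2% to 42.6% in HM and 1.04% to 4.75% in MA9; what part of the level came with that share was not tested. Jund, which is made more steadily than its relatives, kept the narrowest range of the 10 members, 1.93-fold: 260.5, 224, 287 and 325 CPM in MA9 and 432 and 319 in HM.

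Egr1, a zinc finger factor induced by growth signals (chromosome 18, 34859823 to 34864984, plus strand), stood at or below 50.4 CPM in all libraries. It was 36.7, 20.6, 50.4 and 44.3 CPM in the MA9 libraries in the order above and 25.2 and 34.4 CPM in HM PBS and HM AraC + Dox. Atf3, a stress-induced factor of the ATF family, was 23.7 CPM in f/f PBS, 10.1 in Δ/Δ PBS, 23.5 in f/f AraC + Dox, 8.52 in Δ/Δ AraC + Dox, 60.3 in HM PBS and 83.6 in HM AraC + Dox. Atf3 had the widest range of the members, 9.82-fold, with both Δ/Δ libraries lowest and both HM libraries highest. Ier2, a short nuclear protein of the early response, was 245, 181, 293 and 167 CPM in MA9 and 333 and 261 CPM in HM.

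Of the members that end the response, Zfp36 encodes tristetraprolin, which binds AU-rich messages and speeds their decay, and Dusp1 encodes a phosphatase of MAP kinases. Zfp36 was 167, 158, 209.7 and 170.3 CPM in the MA9 libraries in the order above, and 386 and 287 CPM in HM PBS and HM AraC + Dox. Dusp1 was 259, 110.0, 270.5 and 160.0 CPM in MA9 and 292 and 150.1 CPM in HM. Zfp36 joined Junb and Atf3 as the 3 members above all MA9 libraries in both HM libraries, against 11.1% of all genes with that pattern, and the same 3 had it with all barcodes (9.57% of genes). For Dusp1 both libraries labelled Δ/Δ lay below both labelled f/f, as they did for Atf3 and Ier2, 3 of 10 members against 27.6% of genes; 0 members lay above in both, against 41.5%.

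**Figure D1:**
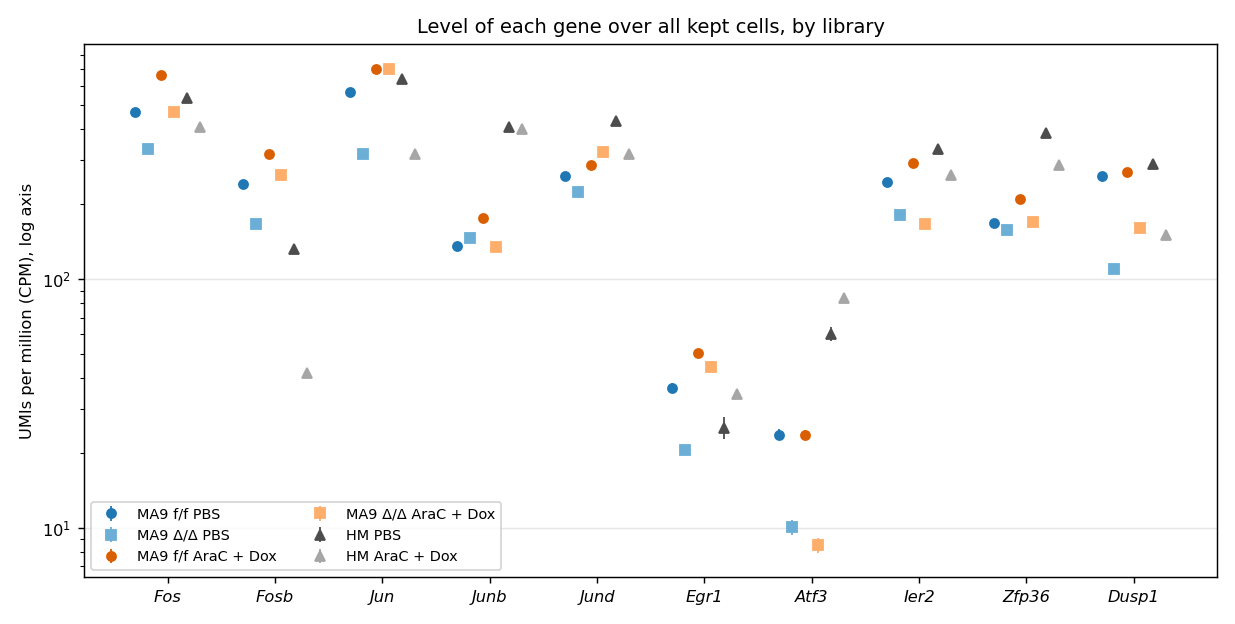
Level of each of the 10 members in each of the 6 libraries, in CPM of kept cells on a log axis, with exact 95% counting intervals; there is 1 library per group. Fosb runs from 42.0 CPM in HM AraC + Dox to 319 in the MA9 f/f-labelled AraC + Dox library, and Junb, Atf3 and Zfp36 are highest in both HM libraries.

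The first comparison asks how the early genes differ between leukaemias labelled as with and without Shp-1. With PBS, 7 of 10 members were at least 1.25-fold lower in the Δ/Δ-labelled library than in that labelled f/f. That size was passed in that direction by 15.7% of 6138 genes (genes with at least 20 CPM in one or the other library). Here and in the later pairs, only the genes behind such a share had to reach 20 CPM, and members were counted at any level. Atf3 and Dusp1 were both 2.36-fold lower, with log2 ratios of -1.24 (-1.36 to -1.11) and -1.24 (-1.27 to -1.20). They were the 2 members at least 2-fold lower, against 3.88% of genes. Jun (-0.83, -0.85 to -0.80) and Egr1 (-0.83, -0.92 to -0.74) came next, then Fosb (-0.53), Fos (-0.49, -0.52 to -0.47) and Ier2 (-0.44). Jund was -0.22 on the same log2 scale, and Zfp36 (-0.09) and Junb (0.11, 0.07 to 0.15) changed sign under another denominator or median-of-ratios scaling. The members' median was -0.51, while that of all genes was 0.16. Median-of-ratios scaling shifts every ratio of this pair by -0.17, of the pair given AraC + Dox by -0.11 and of the HM pair by -0.15. Across the 4 MA9 libraries the one labelled Δ/Δ PBS was lowest for 7 of 10 members, as it was for 11.8% of genes.

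These sums over all kept cells hold the mix of cells, and in them fewer cells of a type and less RNA per cell cannot be told apart. Within gated classes, where both libraries held at least 50 cells, the members' median log2 ratio in the PBS pair differed by class. It was -1.47 for immature neutrophil-like, -1.27 for monocyte-like, -1.16 for promyelocyte-like, -1.002 for progenitor-like and -0.77 for dendritic-like cells. It was -0.68 for mature neutrophil-like and 0.03 for T and NK cell-like cells. Atf3 had 0 UMIs in the Δ/Δ-labelled immature neutrophil-like cells and in the f/f-labelled T and NK cell-like cells given PBS. In every pair that uses those sums Atf3 had no ratio and entered neither the median nor the counts of members. In monocyte-like cells (991 labelled Δ/Δ and 1232 labelled f/f) all 10 members were at least 1.25-fold lower in the Δ/Δ-labelled library, against 21.3% of genes, and 6 were at least 2-fold lower, against 3.14%. Fos was 637 against 1522 CPM there (log2 ratio -1.26), Jun 512 against 1275 (-1.32), Dusp1 201.0 against 641 (-1.67) and Atf3 32.4 against 132 (-2.03). Zfp36 (-0.69) and Junb (-0.77) differed least in this class.

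Promyelocyte-like cells gave a like picture, with 9 of 10 members at least 1.25-fold lower in the Δ/Δ-labelled PBS library (16.5% of genes). Egr1 had a log2 ratio of -2.24 at low levels, 3.14 against 14.9 CPM, and Dusp1 stood at 42.0 against 165 CPM, 3.93-fold lower (-1.97). Jun was 153 against 444 CPM (-1.54), Fosb -1.44 and Fos -1.25, while Junb was -0.24. Stem and progenitor-like cells had 8 members lower (17.9% of genes) and dendritic-like cells 9 (27.7%; 59 cells in the f/f-labelled library). In immature neutrophil-like cells 7 were lower (15% of genes), with Fosb at 14.9 against 119.9 CPM (-3.01) and Jun at 71.7 against 334 (-2.22). Mature neutrophil-like cells had 6 lower and 2 higher (22.7% and 37.3% of genes), and T and NK cell-like cells 2 lower (29.4% of genes), with 65 cells in the library labelled f/f. Dusp1, whose promoter is printed above, was lower in the Δ/Δ-labelled PBS library in each of these 7 classes.

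With AraC + Dox the library labelled Δ/Δ had 5 of 10 members at least 1.25-fold lower than that labelled f/f, against 24.7% of 6057 genes. Atf3 was 2.76-fold lower (log2 ratio -1.47, -1.59 to -1.35), Ier2 -0.81, Dusp1 -0.76, Fos -0.49 and Junb -0.39. Jun did not differ beyond counting error, with a ratio that rounds to 0 and an interval that includes it, and Jund was 0.18. The median was -0.34 over the members and 0.02 over all genes. Within monocyte-like cells 7 were lower (25.9% of genes), among them Atf3 (-1.98), Dusp1 (-0.99), Junb (-0.94) and Fos (-0.90), and Egr1 did not differ beyond counting error. In promyelocyte-like, immature neutrophil-like and mature neutrophil-like cells 7, 7 and 8 members were lower, where 31.1%, 28.8% and 28.5% of genes were. Dendritic-like cells had 4 lower and 1 higher (27.9% and 36.2% of genes), and T and NK cell-like cells 2 and 2 (37.9% and 24.8%).

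The second comparison asks how the early genes stood after AraC + Dox. In the pair labelled MA9 f/f, 5 of 10 members were at least 1.25-fold higher with AraC + Dox than with PBS, against 5.18% of 5767 genes. Fos led with a log2 ratio of 0.49, followed by Egr1 (0.46), Fosb (0.41), Junb (0.37) and Zfp36 (0.32). Atf3 did not differ beyond counting error and Dusp1 was 0.06. Within classes, promyelocyte-like cells had 8 members higher (4.86% of genes), with Fos at 421 against 248 CPM (0.76), Zfp36 at 157 against 93.2 (0.75) and Egr1 at 33.5 against 14.9 (1.17). In monocyte-like cells 0 members were at least 1.25-fold higher and 1 was lower, where 9.36% and 9.78% of genes were. Immature neutrophil-like cells had 5 higher (10.5% of genes). Mature neutrophil-like cells had 4 higher and 1 lower (21.5% and 38.2% of genes), and dendritic-like cells 0 and 5 (34.6% and 31.1%). T and NK cell-like cells had 5 higher and 1 lower (39.0% and 31.1%).

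In the pair labelled MA9 Δ/Δ, 6 of 10 members were at least 1.25-fold higher with AraC + Dox, against 8.95% of 6011 genes. Jun (2.18-fold, log2 ratio 1.12, 1.10 to 1.14) and Egr1 (2.15-fold, 1.11, 1.03 to 1.19) passed 2-fold, which 0.749% of genes did. Fosb was 0.66, Jund and Dusp1 both 0.54 and Fos 0.49, whereas Atf3 was -0.24 and Junb -0.13. In promyelocyte-like cells 8 members were higher (6.28% of genes) and 6 passed 2-fold (0.83%). There Jun was 564 against 153 CPM (1.88), Egr1 23.1 against 3.14 (2.88), Fosb 181 against 55.4 (1.71) and Dusp1 113 against 42.0 (1.43). Monocyte-like cells had 6 members higher (7.44% of genes), stem and progenitor-like cells 8 (19.3%) and immature neutrophil-like cells 6 (17%), all 6 of them by at least 2-fold (1.32%). Mature neutrophil-like cells had 3 higher and 5 lower (20.9% and 38.3% of genes) and dendritic-like cells 2 and 2 (25.7% and 21.9%). T and NK cell-like cells had 6 higher and 1 lower (19.1% and 20.4%) and B cell-like cells 6 and 0 (21.6% and 22.5%). The comparisons labelled as deletion and as AraC + Dox share libraries. The low values of the Δ/Δ-labelled PBS library thus enter both this pair and the PBS pair labelled Δ/Δ against f/f.

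In HM the order was different. With AraC + Dox, 7 of 10 members were at least 1.25-fold lower than with PBS and 2 were higher, where 32.3% and 39.5% of 5099 genes were. Fosb was 3.13-fold lower (log2 ratio -1.65, -1.74 to -1.56), Jun -0.9998 and Dusp1 -0.96, and Jund, Zfp36, Fos and Ier2 lay between -0.44 and -0.35. Atf3 (0.47, 0.37 to 0.58) and Egr1 (0.45, 0.29 to 0.61) were higher, and Junb did not differ beyond counting error. With all HM barcodes in place of the kept cells, 6 members were lower and 1 higher (34.1% and 42.2% of 5328 genes), and the summed level of the 10 members was -0.81 in place of -0.49. Fosb was then -2.52, Jun -1.98, Jund -0.78, Dusp1 -0.68 and Zfp36 -0.089, and Atf3 turned to -0.10. The HM libraries also differed in make-up: the PBS library held 54 T and NK cell-like cells and the other 817.

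Within HM classes Fosb kept its direction, at log2 ratios of -2.31 in immature neutrophil-like, -1.30 in mature neutrophil-like, -1.38 in monocyte-like and -4.12 in T and NK cell-like cells. Jun was lower as well, at -0.84, -0.41 and -0.56 in the 3 myeloid classes. Fos went both ways, at 0.63 in immature neutrophil-like (401 against 258 CPM), 0.12 in mature neutrophil-like and -0.99 in monocyte-like cells (631 against 1251 CPM). Atf3 was 1.03, 2.36 and 0.07 in those classes, and Egr1 1.32 in mature neutrophil-like and 1.11 in monocyte-like cells. Counts of members at least 1.25-fold higher and lower were 2 and 4 in immature neutrophil-like cells (23.7% and 39.9% of genes), 2 and 4 in mature (36.6% and 33.2%), 2 and 5 in monocyte-like (17.7% and 35.9%) and 1 and 8 in T and NK cell-like cells (22.2% and 50.2%). Those counts lie near the background in both neutrophil classes.

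HM PBS was also set against the MA9 f/f-labelled PBS library. Junb was 3.01-fold (log2 ratio 1.59), Atf3 2.54-fold (1.35) and Zfp36 2.31-fold (1.21) higher in HM, and Jund (0.73) and Ier2 (0.44) were higher as well. These were 5 members at least 1.25-fold higher, where 17.8% of 5983 genes were, and Fosb (-0.87) and Egr1 (-0.54) were the 2 lower, where 63.7% were. The median of all genes was -0.62 in this pair, so the directions depend on the scaling: with median-of-ratios size factors all ratios shift by 0.62. Under that scaling Egr1 turned to 0.076, and with all barcodes Fosb was 0.058 in place of -0.87. All barcodes gave 6 members higher and 1 lower (19% and 61.1% of genes), with Jun at 1.23, Atf3 at 1.93, Junb at 1.49, Jund at 1.09 and Zfp36 at 0.85. Classes went both ways. Immature neutrophil-like cells had 6 members higher and 2 lower (16.6% and 58.5% of genes), and T and NK cell-like cells 6 and 3 (34.2% and 42.7%). Mature neutrophil-like cells had 2 and 5 (16.2% and 62.4%) and monocyte-like cells 1 and 5 (28.4% and 40.9%). The summed log2 ratios of these classes were 0.67, 0.37, -0.32 and -0.40, against 0.43 over whole libraries.

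**Figure D2:**
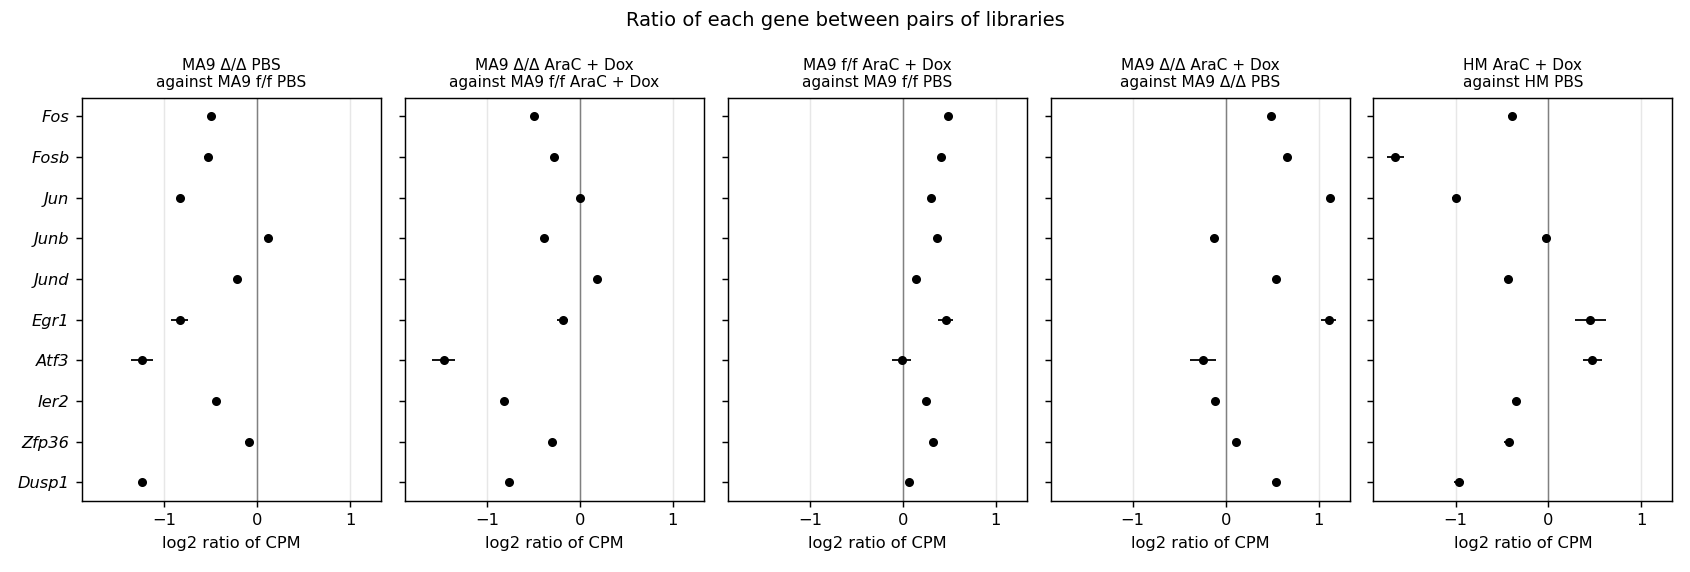
Log2 ratio of each member's CPM between pairs of libraries (first named over second), with exact 95% counting intervals; the vertical line marks no difference, and pairs that share a library are not independent. In the PBS pair labelled Δ/Δ against f/f, Atf3 and Dusp1 are farthest below 0 at -1.24, and in HM Fosb is lowest at -1.65.

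Differences between cell classes could be tested, because each library held several classes. Sums of UMIs per library and class with at least 50 cells, 40 sums in all, were fitted in 1 model with the library as a block, using edgeR's quasi-likelihood test with Benjamini-Hochberg adjustment over 10893 genes. Whether the libraries came from separate animals is not given. With the library as a block, these p-values measure how class differences vary between libraries, with 1 estimate of the spread shared by all classes in the fit. Summed over the 10 members, the median level over libraries was 1699 CPM in immature neutrophil-like cells (lowest 711, highest 2303) and 1553 in promyelocyte-like cells (707 to 2222, 5 libraries). Monocyte-like cells had 4068 (2526 to 5840), mature neutrophil-like cells 3986 (3581 to 5636), dendritic-like cells 5372 (2995 to 8273, 5 libraries) and stem and progenitor-like cells 4328 (2698 to 4859, 3 libraries). By these medians the summed CPM was low in the granule-making stages and higher before and after them. The ranges of immature and mature neutrophil-like cells did not overlap. The scale matters here, since CPM rests on library totals. Against immature neutrophil-like cells, library totals put the median log2 difference of all genes at 0.58 for monocyte-like cells. It was 0.57 for stem and progenitor-like cells and -0.35 for mature neutrophil-like cells. Promyelocyte-like cells were not tested against another class.

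Mature neutrophil-like cells, the end stage of the granulocyte line, exceeded immature ones in 8 of 10 members (25.6% of genes were higher), each in 6 of 6 libraries. Dusp1 stood at 157, 44.7, 183, 103, 138 and 90.3 CPM in immature neutrophil-like cells of the 6 libraries, in the order used for the levels above with HM last. In mature neutrophil-like cells it stood at 1427, 685, 1252, 734, 552 and 384 CPM in the same order. All 6 mature values lay above all 6 immature values, and the fitted log2 difference was 2.84 (SE 0.235, edgeR adjusted p = 6.94e-12). Junb ranged from 74.5 to 242 CPM in immature cells (median 99.3) and from 532 to 979 in mature cells (median 748), a log2 difference of 2.66 (SE 0.280, edgeR adjusted p = 7.39e-10). Zfp36 ranged from 85.6 to 298 and from 371 to 683 CPM (1.96, SE 0.294, edgeR adjusted p = 6.90e-07), and Fos from 63.0 to 401 and from 478 to 1259 CPM (1.95, SE 0.330, edgeR adjusted p = 5.14e-06). For these genes the 2 classes did not overlap either.

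Atf3 was nearly absent from immature neutrophil-like cells, at 0 to 14.7 CPM. In the Δ/Δ-labelled PBS library it had 0 UMIs in 260 cells, which allows up to 1.44 CPM by a floor of 3 counts. Mature cells had 3.88 to 97.2 CPM, a log2 difference of 3.47 (edgeR adjusted p = 6.57e-08). Egr1 (1.21, edgeR adjusted p = 0.0085), Jund (1.13, edgeR adjusted p = 1.82e-05) and Ier2 (0.77, edgeR adjusted p = 0.000244) were higher by less. Jun was the exception: it was 71.7 to 666 CPM in immature and 99.7 to 461 CPM in mature cells, higher in the mature class in 2 of 6 libraries, with an edgeR adjusted p of 0.999. Fosb was 0.74 with an edgeR adjusted p of 0.0594. Mature neutrophil-like cells were shallower, with a median of 1889.5 to 5435 UMIs against 5281.5 to 10595 in immature cells, and the part of depth in these differences was not tested.

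In monocyte-like cells, 5 of 10 members were higher than in immature neutrophil-like cells and 1 was lower (29.2% and 26.2% of genes). Atf3 reached 26.1 to 349 CPM, against 14.7 at most in the neutrophil class, a log2 difference of 4.91 (SE 0.429, edgeR adjusted p = 7.14e-12). Fos was 1522, 637, 1686, 903, 1251 and 631 CPM in the 6 libraries in the order above, and 174, 63.0, 271, 129, 258 and 401 CPM in immature neutrophil-like cells. The ranges did not overlap, and the difference was 1.65 (SE 0.330, edgeR adjusted p = 6.58e-05). Fosb (1.51, edgeR adjusted p = 0.000275), Dusp1 (0.97, edgeR adjusted p = 0.00036) and Junb (0.63, edgeR adjusted p = 0.0429) were also higher, and Jun was 0.78 with an edgeR adjusted p of 0.0558. The calls near the threshold depended on single libraries: Junb was lost without any 1 of the 4 MA9 libraries (edgeR adjusted p 0.0871 to 0.203), and Jun was gained without HM PBS (0.0472) or HM AraC + Dox (0.000908). Ier2 was called lower (-0.45, edgeR adjusted p = 0.0245) although its CPM was higher in 4 of 6 libraries, and with library totals in place of TMM scaling it was 0.13. That scaling moved the median of all genes from 0.03 to 0.58 in this comparison and gave 8 members higher and 0 lower, with 56.7% and 12% of genes, so the 5 and 1 above are relative to the trimmed mean of all genes.

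**Figure D3:**
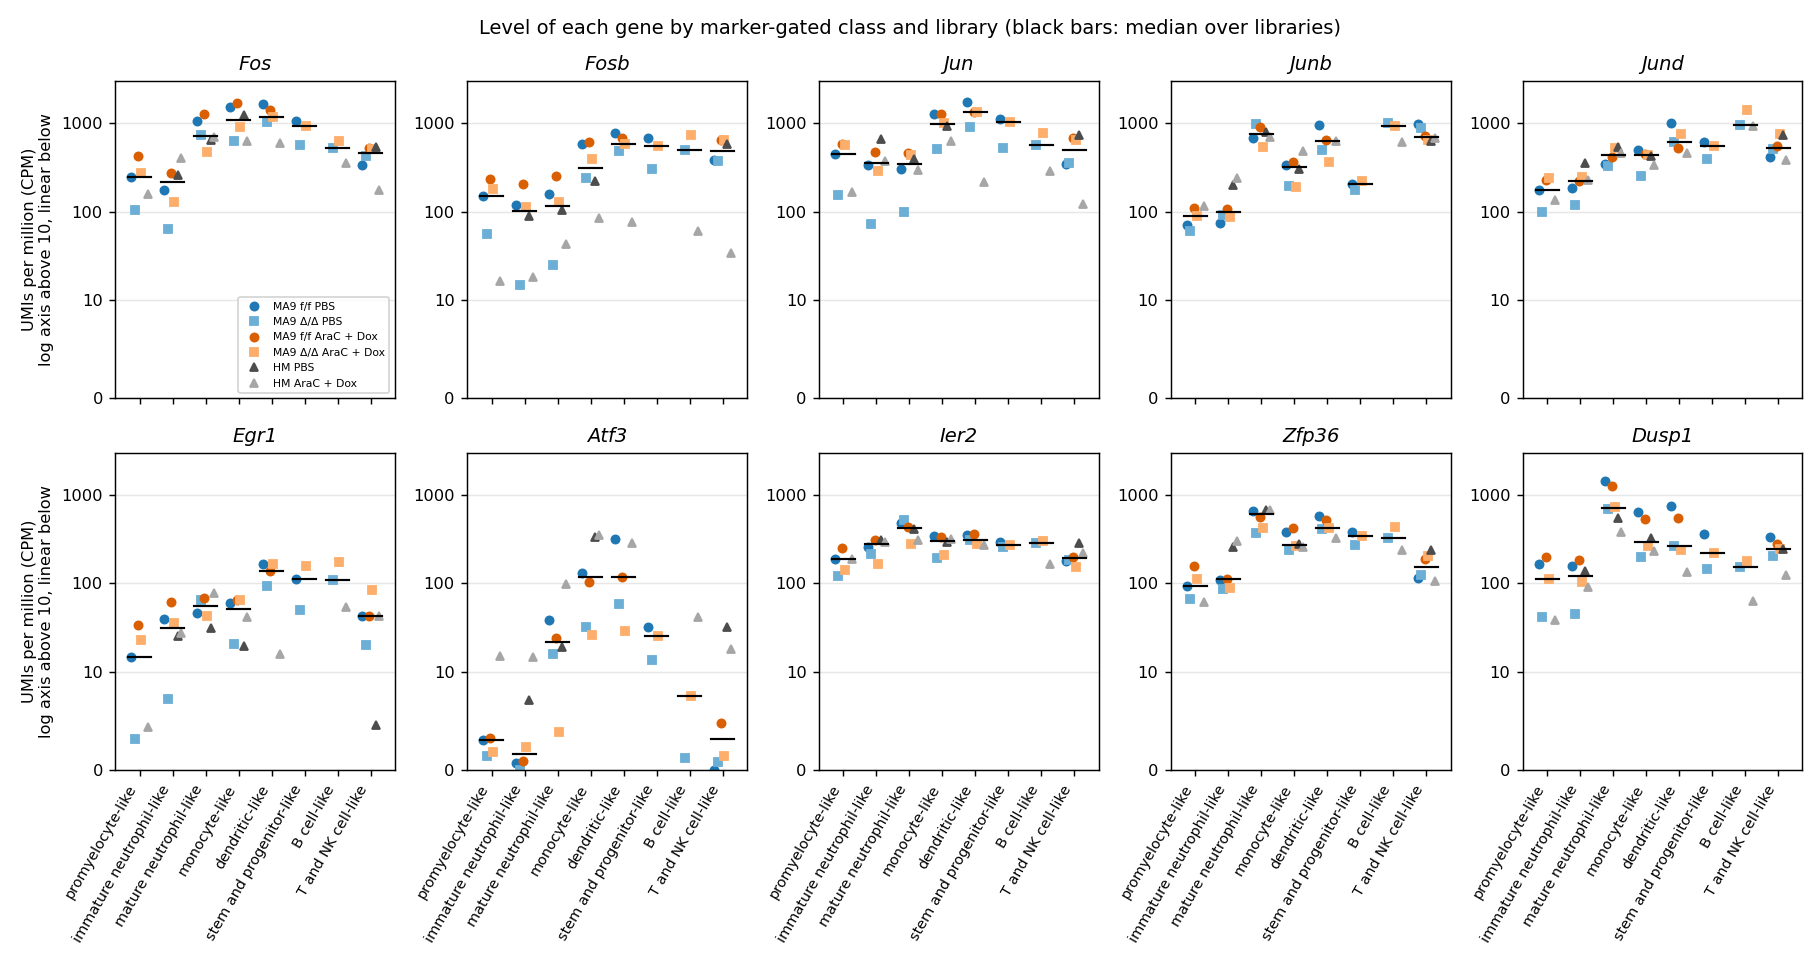
Level of each member in CPM (log axis above 10, linear below) in gated cell classes; each point is 1 library with at least 50 cells of the class, and black bars are medians over libraries. Dusp1 and Junb are higher in mature than in immature neutrophil-like cells in 6 of 6 libraries, while Jun overlaps, and the medians of Atf3 are highest in monocyte-like and dendritic-like cells.

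Stem and progenitor-like cells could be compared with immature neutrophil-like cells in 3 libraries, both labelled as MA9 with PBS and the one labelled Δ/Δ AraC + Dox. Fosb was 675, 306 and 551 CPM there, against 119.9, 14.9 and 113 CPM in immature neutrophil-like cells (log2 difference 1.95, edgeR adjusted p = 0.000177). Fos was 1051, 570 and 941 CPM in the progenitor class (1.48, edgeR adjusted p = 0.00286), and Jund (0.77, edgeR adjusted p = 0.0137) and Atf3 (3.64, edgeR adjusted p = 5.83e-07) completed the 4 of 10 members called higher, where 23.9% of genes were. With library totals 9 members were higher (47.7% of genes). The Jund call was lost without the f/f-labelled PBS library (0.154) or Δ/Δ PBS (0.108) by the same edgeR test. Without HM AraC + Dox, whose 29 progenitor-like cells were too few to form a sum, 7 members were called, Jun, Egr1 and Zfp36 being the gains.

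Between lymphocytes, T and NK cell-like cells were set against B cell-like cells, with both classes in 3 libraries. Jund was 962, 1407 and 928 CPM in B cell-like cells of the Δ/Δ-labelled libraries with PBS and with AraC + Dox and of HM AraC + Dox, and 508, 757 and 381 CPM in T and NK cell-like cells. Each B value exceeded the T and NK value of its library, and the log2 difference was -1.13 (edgeR adjusted p = 0.0011). Zfp36 (-1.30, edgeR adjusted p = 0.0095) and Egr1 (-1.56, edgeR adjusted p = 0.0344) were the other 2 of 3 members lower in T and NK cell-like cells, where 9.23% of genes were lower. Dusp1 was the member with a positive difference, 0.38, higher in 3 of 3 libraries with an edgeR adjusted p of 0.451. Without the library as a block the Jund call was lost too (edgeR adjusted p = 0.0625), and 0 members were called. Egr1 was lost without any 1 of 5 libraries (edgeR adjusted p 0.0629 to 0.296), and Zfp36 without the Δ/Δ-labelled PBS library (0.118) or Δ/Δ AraC + Dox (0.0855). Atf3 had 0 UMIs in the 65 T and NK cell-like cells of the MA9 f/f-labelled PBS library, which allows up to 12.8 CPM.

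Barcodes rich in mitochondrial RNA, which are commonly taken as damaged cells and were left out above, held more of some early genes. Levels were taken per 1000000 nuclear-encoded UMIs, so that the mitochondrial share does not enter the denominator. Jun stood at 1448 in barcodes over 10% mitochondrial UMIs and 583 in kept cells of the MA9 f/f-labelled PBS library, 709.8 and 331 in Δ/Δ PBS, 1747 and 719 in f/f AraC + Dox, and 2603 and 724 in Δ/Δ AraC + Dox. HM PBS had 2827 and 651, and HM AraC + Dox 1649.7 and 323. Jun was therefore higher in the high-mitochondrial barcodes of all 6 libraries, by 2.15-fold to 5.10-fold. The edgeR quasi-likelihood test over 12 sums and 11458 nuclear genes, with the library as a block, gave a log2 difference of 1.13 (SE 0.182, adjusted p = 0.00034).

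Fosb (0.91, SE 0.148, edgeR adjusted p = 0.000363) and Jund (0.71, SE 0.139, edgeR adjusted p = 0.00133) also passed, making 3 of 10 members higher, where 15.1% of genes were. Their folds per library ran from 1.76 to 3.76 and from 1.89 to 2.83. The members that end the response behaved otherwise: Zfp36 was -0.48 (edgeR adjusted p = 0.148), with folds from 0.492 in HM AraC + Dox to 2.29 in the Δ/Δ-labelled AraC + Dox library, and Dusp1 -0.47 (edgeR adjusted p = 0.0772). Without that library, in which all 10 members were at least 2-fold higher (22.6% of genes), Zfp36 was called lower at -0.73 and Dusp1 at -0.69. Fos was 0.05 with an edgeR adjusted p of 0.878. With library totals 8 members were higher (38.3% of genes).

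Barcodes over the limit were shallow, with medians of 1012 to 1475 UMIs. When both sides were restricted to fewer than 2000 UMIs, an alternative added after seeing the data, Jun remained higher at 1.18 (edgeR adjusted p = 0.003), and Zfp36 (-0.78) and Dusp1 (-1.21) were called lower, while Fosb and Jund were not called. Of the 6372 genes tested at that depth, 678 were called higher and 743 lower. The Δ/Δ-labelled AraC + Dox library then had 2 members at least 2-fold higher in place of 10. In it 5 were at least 1.25-fold higher and 3 lower, where 44.7% and 30.6% of genes were, so these counts lie near the background. Malat1, a nuclear RNA that is retained when cytoplasm leaks, was 1.91-fold to 4.05-fold higher in the same barcodes, and its part in these differences was not tested. Single-exon genes as a class did not share the rise of Jun and Jund: 15.4% of 657 were called higher against 14.7% of 10320 with several exons, with medians of -0.16 and -0.04.

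Over finer bins Jun increased with the mitochondrial share. In the MA9 f/f-labelled PBS library it went from 370.0 per 1000000 nuclear-encoded UMIs in cells at 0 to 1% to 1381 in barcodes at 10 to 20%, and in the Δ/Δ-labelled AraC + Dox library from 504 in the lowest bin to 3369.6 in the highest. HM PBS went from 374 to 3593, and HM AraC + Dox from 328 to 2195 with a dip to 255 at 2 to 3%. Dusp1 followed the opposite course at the low end and was highest in the 0 to 1% bin in all 6 libraries, at 235 to 596 in the same unit. Cells of that bin were shallow, with a median of 3261 UMIs in the MA9 f/f-labelled PBS library against 6563.5 over all its kept cells, and what part depth had was not tested.

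**Figure D4:**
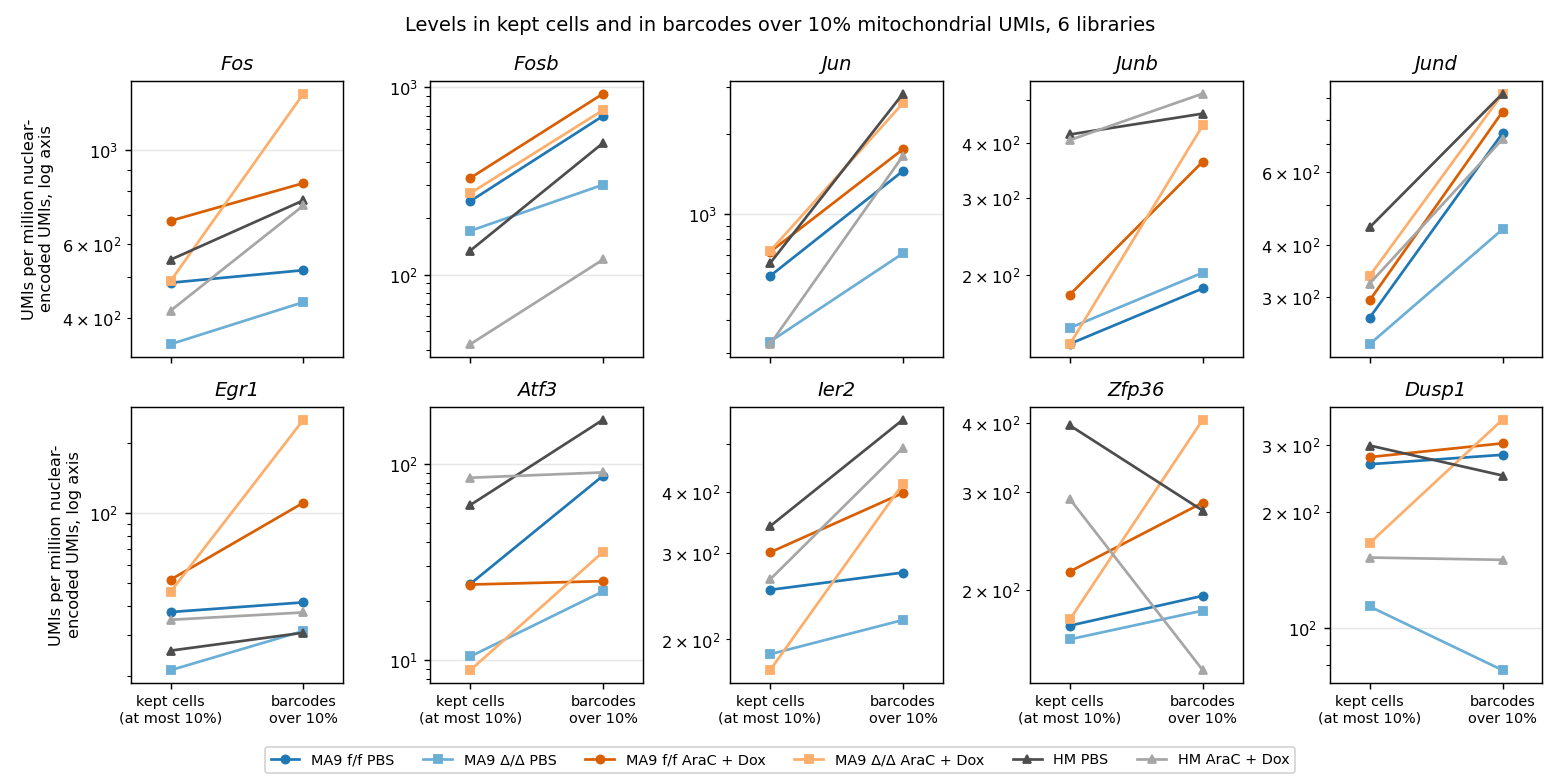
Level of each of the 10 members per 1000000 nuclear-encoded UMIs, on a log axis, in kept cells (at most 10% mitochondrial UMIs) and in barcodes over 10%; each line joins the 2 values of 1 library. Fos, Fosb, Jun, Junb, Jund, Egr1, Atf3 and Ier2 are higher over 10% in all 6 libraries. Zfp36 is higher in 4 and lower in HM PBS and HM AraC + Dox. Dusp1 is higher in 3 and lower in the Δ/Δ-labelled PBS library (0.68-fold), HM PBS (0.84-fold) and, barely, HM AraC + Dox (0.99-fold).

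Joint detection of the members was counted in single cells, each thinned to 2000 UMIs, with shallower cells left out (366 to 1589 per library). In the MA9 f/f-labelled PBS library 23.5% of cells (22.5 to 24.4) had a UMI of at least 5 members, where the product of the members' separate shares gives 15.2%. The library labelled Δ/Δ PBS had 18.9% (18.0 to 19.8) against 8.25%, f/f AraC + Dox 30.8% against 25.2%, and Δ/Δ AraC + Dox 26.4% against 18.3%. HM PBS had 37.1% against 32.5% and HM AraC + Dox 27.0% against 21.6%. Joint detection thus exceeded the product in all 6 libraries, most in the one labelled Δ/Δ PBS. Whole libraries mix classes with unlike member levels, and mixing alone can lift joint detection above the product. In the Δ/Δ-labelled PBS library the summed level was 707 CPM in promyelocyte-like and 3815 in mature neutrophil-like cells. What part the mixture had was not tested. Without thinning the shares were 64.1%, 56.4%, 77.9%, 79.6%, 70.8% and 76.5% in the order above, so their size is set by depth.

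Within classes the excess of cells with 5 or more members was not uniform. In the MA9 f/f-labelled PBS library, 65.7% of monocyte-like cells had 5 or more members against a product of 73.0%, whereas the Δ/Δ-labelled PBS library had 27.1% against 19.6%. The counted share of monocyte-like cells lay below the product in 3 of 6 libraries, both labelled f/f and HM AraC + Dox, and above it in the other 3. Where it lay below, cells held a mean of 5.35, 5.29 and 4.55 members, so a cutoff of 5 lay near the mean. Monocyte-like cells without any member still exceeded the product there, at 0.432% against 0.0119%, 0.751% against 0.0127% and 1.95% against 0.156%. Among pairs in this class, the lowest median ratio of joint detection to the product was 1.04, for Fos and Junb. The shortfall therefore does not show that members were found together less often than the product. Mature neutrophil-like cells also lay below the product in 3 of 6 libraries, the MA9 libraries other than Δ/Δ PBS. In each of those the product lay inside the exact interval of the counted share, for example 48.4% within 39.8% to 55.1% in f/f PBS. The same held for monocyte-like cells of HM AraC + Dox, but not for those of the libraries labelled f/f. Thinned to 1000 UMIs, both classes lay above the product in 6 of 6 libraries, at 35.3% against 29.4% for monocyte-like cells of the f/f-labelled PBS library, so the sign in these classes depended on the depth chosen. Immature neutrophil-like cells, in which the members are low, had more than the product in 6 of 6 libraries (8.56% against 4.56% in the f/f-labelled PBS library), and promyelocyte-like cells in 5 of 5 (8.80% against 4.21%). Among pairs, Egr1 and Atf3 were found together 2.28 times as often as the product over whole libraries (median of 5 libraries, 1.82 to 3.79) and 1.62 times within monocyte-like cells. Fos and Fosb were found together in immature neutrophil-like cells 1.43 times as often (median of 5 libraries, 1.23 to 1.53). Free RNA in droplets can add a UMI to any cell, and no correction for it was made.

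**Figure D5:**
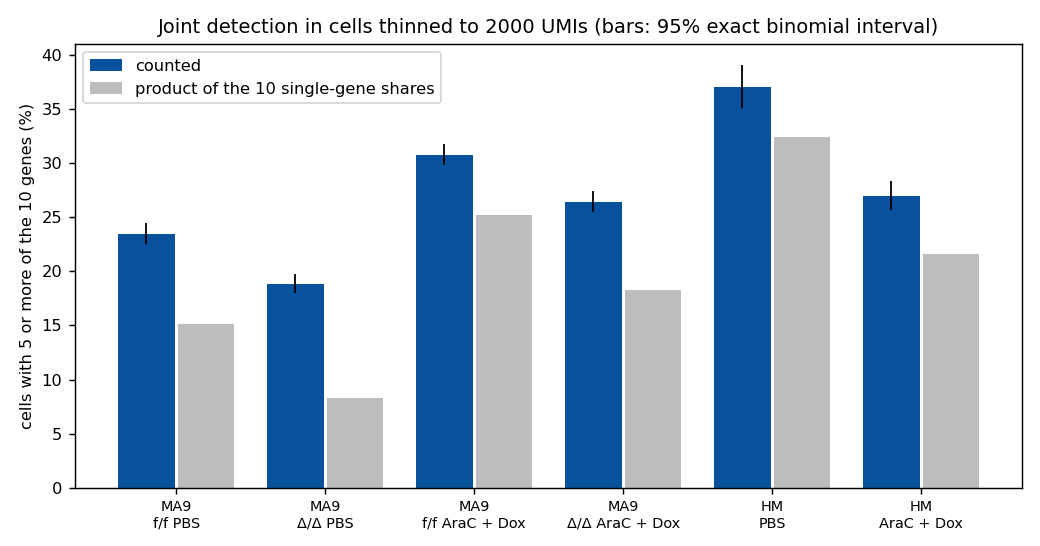
Percent of cells with a UMI of at least 5 of the 10 members after thinning each cell to 2000 UMIs, by library, with exact 95% intervals, beside the percent given by the product of the members' separate shares. The counted percent is above the product in all 6 libraries, for example 18.9% against 8.25% in the MA9 Δ/Δ-labelled PBS library. Each bar covers a whole library, with its cell classes mixed.

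Across the 40 library and class sums, each centred within its library, the members differed in how closely they followed the rest. Pearson's r with the mean of the other 9 was 0.93 for Fos, 0.88 for Zfp36, 0.80 for Jund, 0.77 for Egr1, 0.73 for Dusp1, 0.70 for Atf3 and for Junb, 0.62 for Jun, and 0.61 for Fosb and for Ier2. Fos and the message-decay factor Zfp36 were thus closest to the common pattern. Of 8662 genes that are not members, the 10 most like the mean member pattern included Camk1d (0.92), Susd3 (0.91), Irf9 (0.89), Sema4d (0.88), Ctdsp2 (0.88), Slfn5 (0.87), Trim30d (0.87), Acbd5 (0.86) and Syf2 (0.85). Irf9 encodes the DNA-binding part of the interferon-activated complex ISGF3. These r values describe sums that share libraries, depth and cell classes, and carry no p-value.

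Other early response genes, a fixed list that includes Klf, Nr4a and Gadd45 genes, went the way of the members in part. This list and those after it are counted at 5 CPM or more in one or the other library, where 33.4% of all genes were at least 1.25-fold higher and 15.6% lower in the Δ/Δ-labelled library with PBS, and 29.1% and 24.3% with AraC + Dox. For AraC + Dox against PBS the shares were 5.88% and 8.7% in the pair labelled f/f, 9.75% and 20% in that labelled Δ/Δ, and 40.1% and 30.4% in HM. Of the 22 measured at 5 CPM or more in the PBS pair, 12 were at least 1.25-fold lower in the Δ/Δ-labelled library and 4 were higher, with a median log2 ratio of -0.37 against 0.16 for all genes compared. Gadd45a, a growth arrest gene, was 24.0 against 56.1 CPM (log2 ratio -1.23), and Cebpd, a myeloid factor, 131 against 269.6 (-1.04). Myc went the other way at 72.8 against 34.5 CPM (1.08). In the AraC + Dox pair 10 of 22 were lower and 3 higher (median -0.26), with Klf2, a factor of quiescent cells, at 333 against 662 CPM (-0.99) and Cebpd at -1.23. With AraC + Dox against PBS, 5 of 22 were higher and 1 lower in the pair labelled f/f, 8 higher and 3 lower in the pair labelled Δ/Δ, and 11 higher and 4 lower of 26 in HM, where Nr4a2, an orphan nuclear receptor, was 33.5 against 4.03 CPM (8.30-fold; 6.03-fold with all barcodes). The share higher in HM is near that of all genes, and with all barcodes it was 10 higher and 7 lower of 26 (38.1% and 36.2% of genes).

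Heat shock genes, which encode chaperones, did not follow the early genes. With PBS 10 of 15 were at least 1.25-fold higher in the Δ/Δ-labelled library and 0 lower (median log2 ratio 0.70), with the mitochondrial chaperonins Hspe1 at 374 against 172 CPM (1.12) and Hspd1 at 358 against 168 (1.10), and Hspa5 of the endoplasmic reticulum at 1003 against 553 (0.86). In the AraC + Dox pair 12 of 15 were higher and 0 lower (median 0.79), with Hspd1 at 464 against 175 CPM (1.41). AraC + Dox against PBS gave 0 higher and 0 lower in the pair labelled f/f, 6 higher and 1 lower of 15 in the pair labelled Δ/Δ, and 9 higher and 1 lower of 14 in HM (8 and 2 with all barcodes). Integrated stress response genes had 4 of 11 higher and 2 lower in the PBS pair, near the shares of all genes, among them Phgdh of serine synthesis at 53.1 against 9.31 CPM. They had 6 of 11 higher in the AraC + Dox pair and 11 of 13 higher in HM with AraC + Dox (medians 0.48 and 1.27), where Ddit3, which encodes CHOP, was 229 against 32.2 CPM (7.10-fold). With all barcodes 11 of 13 were higher in HM and Ddit3 was 6.19-fold higher.

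Genes of negative feedback on MAP kinase and NF-kB signals, the group to which Dusp1 belongs by function, went both ways, with 5 of 14 higher and 3 lower in the PBS pair and 5 of 16 higher and 5 lower in the AraC + Dox pair, the latter near the shares of all genes. In HM with AraC + Dox 11 of 16 were higher and 1 lower (median 0.98 against 0.09 for all genes), with Nfkbia, the inhibitor of NF-kB, at 959 against 214 CPM (4.49-fold) and Dusp5 at 57.9 against 11.5 (5.04-fold), while Dusp1 itself was lower. With all barcodes 9 were higher and 3 lower (median 0.74), with Nfkbia at 4.60-fold and Dusp5 at 4.36-fold. Other AP-1 and ATF factors gave 3 of 13 higher and 3 lower in the PBS pair and 6 of 14 higher and 5 lower in HM, where the shares are near those of all genes (6 and 3 with all barcodes). Of messages known as targets of the Zfp36 family, 3 of 9 were higher and 3 lower in the PBS pair, with the kinase gene Pim1 at 222 against 36.4 CPM (2.61), and 6 of 9 were lower and 1 higher in the AraC + Dox pair (median -0.42). Ier3 stands in both the early response and the Zfp36 target lists.

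Between classes the lists parted. Mature neutrophil-like cells exceeded immature ones in 22 of 28 early response genes, with 1 lower, by edgeR's quasi-likelihood test with Benjamini-Hochberg adjustment, with a median of 1.499 against -0.14 for all genes, among them Maff, a small Maf factor (log2 difference 2.66, edgeR adjusted p = 2.78e-06), the AP-1 factor Fosl2 (2.56), Btg1 (2.54) and Ier5 (2.26). Feedback genes had 13 of 18 higher (median 1.87), with Socs3, a brake on cytokine signals, at 4.12 (edgeR adjusted p = 8.95e-10). Zfp36 family targets had 9 of 10 higher (median 2.18), with Il1b at 6.38 (edgeR adjusted p = 1.66e-12) and Cxcl2 at 4.403; both also led the class itself, so they describe it. Heat shock genes had 10 of 15 lower (34.8% of genes were lower; median -1.01), with Hspd1 at -1.68 and Hsp90aa1 at -1.36. In monocyte-like cells the early response list had 6 of 28 higher and 7 lower (median 0.16), where 29.2% and 26.2% of genes were. Those counts lie near the background. Klf4, a factor of monocyte differentiation, was at 5.01 (edgeR adjusted p = 9.14e-18) and Gadd45a at -2.53.

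In high-mitochondrial barcodes 3 of 27 other early response genes were higher and 4 lower by the same edgeR test, where 22.8% of genes were lower, with Ier5l at 1.52, the myeloid factor Cebpb at -1.11 (edgeR adjusted p = 0.000279) and Cebpd at -1.07. Heat shock genes had 1 of 15 higher and 5 lower there, with Hspe1 at -1.55. The median of the early response list was 0.01 and that of the 10 members 0.19, against -0.04 for all genes.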

How the data were processed

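For 6 leukaemic mouse marrows, 1 droplet library per group, the authors deposited UMI counts of genes by barcodes, whole numbers without normalisation. Cell Ranger 3.0.2 wrote the MA9 matrices, per the file headers. The submitters' processing notes name that version and mm10 for the series, while the HM headers name no software. The kit was a Chromium 3′ kit per the labels' protocols. Groups came from the labels alone. The 10 members and all gene lists were chosen with earlier results of these data known.

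Kept barcodes had 500 or more genes and no more than 10% mitochondrial UMIs, and doublets were removed with Scrublet (scanpy 1.11.5), with a shared threshold in 4 libraries where the automatic one marked under 0.5% of cells. Each cell was gated to the class with the highest mean z-score of fixed markers, with at least 3 markers detected, a mean of at least 0.3 and a gap of at least 0.2. The threshold and the gating rule were set after seeing the data. UMIs were summed per library or per library and class and scaled to CPM; log2 ratios carry exact Clopper-Pearson 95% intervals, for counting error only. Between libraries no test was made. Sizes of 1.25-fold and 2-fold were counted, over all genes at 20 CPM or more and over the members at any level above 0 UMIs.

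Classes were tested with edgeR 4.0.16 (R 4.3.3), quasi-likelihood, TMM scaling, library as a block, and Benjamini-Hochberg adjustment over all genes, called at 0.05 or less. On simulated counts with 200 genes changed 2-fold the test recovered 93.5% for monocyte-like, 67.5% for stem and progenitor-like and 90.5% for mature neutrophil-like cells, 38% for T and NK against B cell-like cells and 75.5% for high-mitochondrial barcodes. Alternatives were DESeq2 1.42.0, no filter, no block, a stricter gate, doublets kept, only the 2 classes, other scalings and barcode limits, and leaving out each library. Named genes were the members, up to 4 of each list with the largest absolute log2 ratio at 20 CPM or more, and the 10 most like the mean pattern, of which 1 is not reported here. Gene models came from GENCODE vM21 and promoters from RefSeq (GRCm38.p6).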

Additional observations from a re-analysis of the deposited data

Results flagged for a closer look

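For 6 of 10 members AraC + Dox and PBS stood in opposite order in MA9 and HM: the level with AraC + Dox was above that with PBS in both MA9 pairs and below it in HM, a pattern that 7.16% of 6733 genes had. Fos had log2 ratios of 0.49 in the pair labelled f/f, 0.49 in that labelled Δ/Δ and -0.39 in HM. Fosb had 0.41, 0.66 and -1.65, and Jun had 0.30, 1.12 and -0.9998 in the same order. Jund had 0.14, 0.54 and -0.44, Zfp36 had 0.32, 0.11 and -0.43, and Dusp1 had 0.06, 0.54 and -0.96. These ratios are over whole libraries, and the order did not hold in every class. In both HM neutrophil classes Fosb and Jun were lower with AraC + Dox, while Fos was higher. In monocyte-like cells of the pair labelled f/f the members' median was 0.04. There 0 members were at least 1.25-fold higher (9.36% of genes). The difference between the leukaemias was not tested, since each group is 1 library. HM PBS kept 22.1% of its barcodes; with all barcodes the same 6 members had this order, as did 8.85% of 6738 genes. The order also rests on the 2 MA9 labels in doubt. With these exchanged, 0 of 10 members had it (11.4% of genes), and for Fos, Fosb, Jun, Ier2, Zfp36 and Dusp1 the level with AraC + Dox was below that with PBS in both MA9 pairs and in HM, as it was for 22.4% of genes.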

How the results depend on the processing

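With library totals in place of TMM, an alternative added after seeing the data, monocyte-like cells had 6176 genes higher and 1312 lower than immature neutrophil-like cells, with 8 members higher and 0 lower, and Ier2 turned to 0.13. Stem and progenitor-like cells then had 5195 and 1151 genes and 9 members higher, and high-mitochondrial barcodes 4386 and 1148 genes and 8 members higher. The library block pairs classes of the same library, and the labels give every group replicate 1, so no numbers pair samples across groups. Without that block 3 members were higher and 0 lower in monocyte-like cells, beside 2268 and 2002 of 10893 genes. In stem and progenitor-like cells 2 were higher, beside 1924 genes. T and NK against B cell-like cells then gave 493 genes higher and 611 lower and 0 members lower, and high-mitochondrial barcodes 950 and 1682 genes and 1 member higher. With only the 2 classes in the fit, 9 members were higher in stem and progenitor-like cells, beside 2226 of 10581 genes. In T and NK cell-like cells 1 was higher and 5 lower, beside 971 and 860 of 7131 genes. Without the filter on low counts 1 member was lower in high-mitochondrial barcodes. With both sides under 2000 UMIs there were 678 and 743 genes, and 1 member higher and 2 lower. Leaving out 1 library at a time gave 0 to 1 members lower in monocyte-like cells, 3 to 7 higher in stem and progenitor-like cells and 0 to 2 lower in high-mitochondrial barcodes. T and NK against B cell-like cells gave 464 to 941 genes higher, 574 to 933 lower and 1 to 4 members lower. All 52 alternative counts for mature against immature neutrophil-like cells stayed within 1.5 times of those reported, and the 16 alternative summed class levels moved by less than the spread over libraries.

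Between libraries, the summed log2 ratio of the members for Δ/Δ against f/f with PBS was -0.70 with median-of-ratios scaling, -0.54 with a limit of 5% mitochondrial UMIs and -0.41 with mitochondrial, ribosomal protein and haemoglobin genes left out of the denominator. For the pair given AraC + Dox it was -0.40, -0.32 and -0.15 in the same order, and -0.28 with all barcodes. AraC + Dox against PBS gave 0.33 with median-of-ratios scaling in the pair labelled f/f. In that labelled Δ/Δ it gave 0.62, 0.53 at the 5% limit, 0.57 with the other denominator and 0.53 with doublets kept. HM gave -0.65, -0.46 and -0.31 under those 3 settings, and -0.81 with all barcodes. HM PBS against MA9 f/f PBS gave 1.05, 0.39, 0.22 and 0.77. Members that changed sign were Junb (-0.057, median-of-ratios) and Zfp36 (0.031, other denominator) in the PBS pair and Atf3 in HM (-0.10, all barcodes). In HM PBS against MA9 f/f PBS they were Egr1 (0.076, median-of-ratios), Fosb (0.058) and Dusp1 (-0.10) with all barcodes, Jun at the 5% limit (-0.013), and Fos (-0.023), Jun (-0.046) and Dusp1 (-0.043) with the other denominator. Thinned to 1000 UMIs, 10.2%, 7.67%, 11.5%, 12.1%, 11.6% and 9.13% of cells had 5 or more members, in the order of libraries used above. By Spearman's rho 4 of the 10 genes most like the members remained among the first 10. With the 2 doubted MA9 labels exchanged, an alternative added after seeing Ptpn6, the summed log2 ratio was 0.31 for Δ/Δ against f/f with PBS and 0.55 with AraC + Dox, and -0.53 for AraC + Dox against PBS in f/f and -0.29 in Δ/Δ. The causes of the other changes were not tested. Where Atf3 had 0 UMIs in a class, depth allows no more than the limits given for it.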
